A study of Homo sapiens with 6 samples.

Results

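The proteasome genes described here are 44 genes that encode the subunits of the proteasome, its activator caps, the chaperones that assemble it and NFE2L1, the transcription factor that drives many of these genes. They were chosen by symbol, with earlier results of these data known, and all 44 were found among the 28395 gene IDs counted in each library. The cells were HCT116, an established human colorectal cancer line. In 3 libraries the cells had received 50 nM TR-107, a small-molecule agonist of the mitochondrial protease ClpP, for 24 h, and in the other 3 they had received the vehicle, 0.1% DMSO, for the same time. No genetic change separates the groups, both of which are this single line, and nothing in the labels says how the replicate cultures were kept apart, and the p-values therefore speak only of library-to-library spread, which may be technical. The total count per library ranged from 17264039 to 23708135. The epithelial markers EPCAM, KRT8, KRT18 and CDH1 were present in all 6 libraries (85.5 CPM, counts scaled to the library size, or more), and the leukocyte marker PTPRC had 0 counts in each. The fibroblast marker COL1A1 was counted in all 6 libraries (12.9 to 18.2 CPM), and the endothelial marker PECAM1 had 0 to 7 counts per library.

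The proteasome degrades proteins that carry ubiquitin chains. Its barrel-shaped core, the 20S particle, stacks rings of alpha subunits, which gate the entrance, on rings of beta subunits, of which PSMB5, PSMB6 and PSMB7 cut peptide bonds. The 19S particle caps the barrel: its base holds a ring of ATPases that unfold substrates, with scaffold subunits and ubiquitin receptors, and its lid holds the deubiquitinase PSMD14. When the proteasome is inhibited, NFE2L1 escapes degradation, is processed and enters the nucleus, where with a small MAF partner it binds antioxidant response elements in the promoters of proteasome genes.

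To ask how TR-107 affected the mRNAs for the machinery of cytosolic protein breakdown, the particle groups were compared between treatments. After TR-107, 33 of the 42 members that could be tested were lower, 1 was higher and 8 did not pass the test (edgeR's quasi-likelihood test, Benjamini-Hochberg adjusted p under 0.05 over all 13767 genes tested). Of all genes tested, 57.8% were called, 28.6% lower and 29.2% higher. The member that rose was NFE2L1. The median log2 fold change of the tested members was -0.34, a level 79.0% of that in DMSO, while the median over all genes tested was 0.01. The 3 TR-107 libraries lay below all 3 DMSO libraries for 35 of the 42 tested members (83.3%), a pattern found in 30.9% of all genes tested, and above them for 1, NFE2L1, the reverse pattern being found in 31.5%. The falls were small: 4 of the 42 members (9.52%) were called and at least 1.5-fold lower, against 10.5% of all genes tested, namely PSMA2, PSMD2, PSMD3 and PSMB10. PSMB8 and PSMB9 had too few counts to test.

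**Figure D1:**
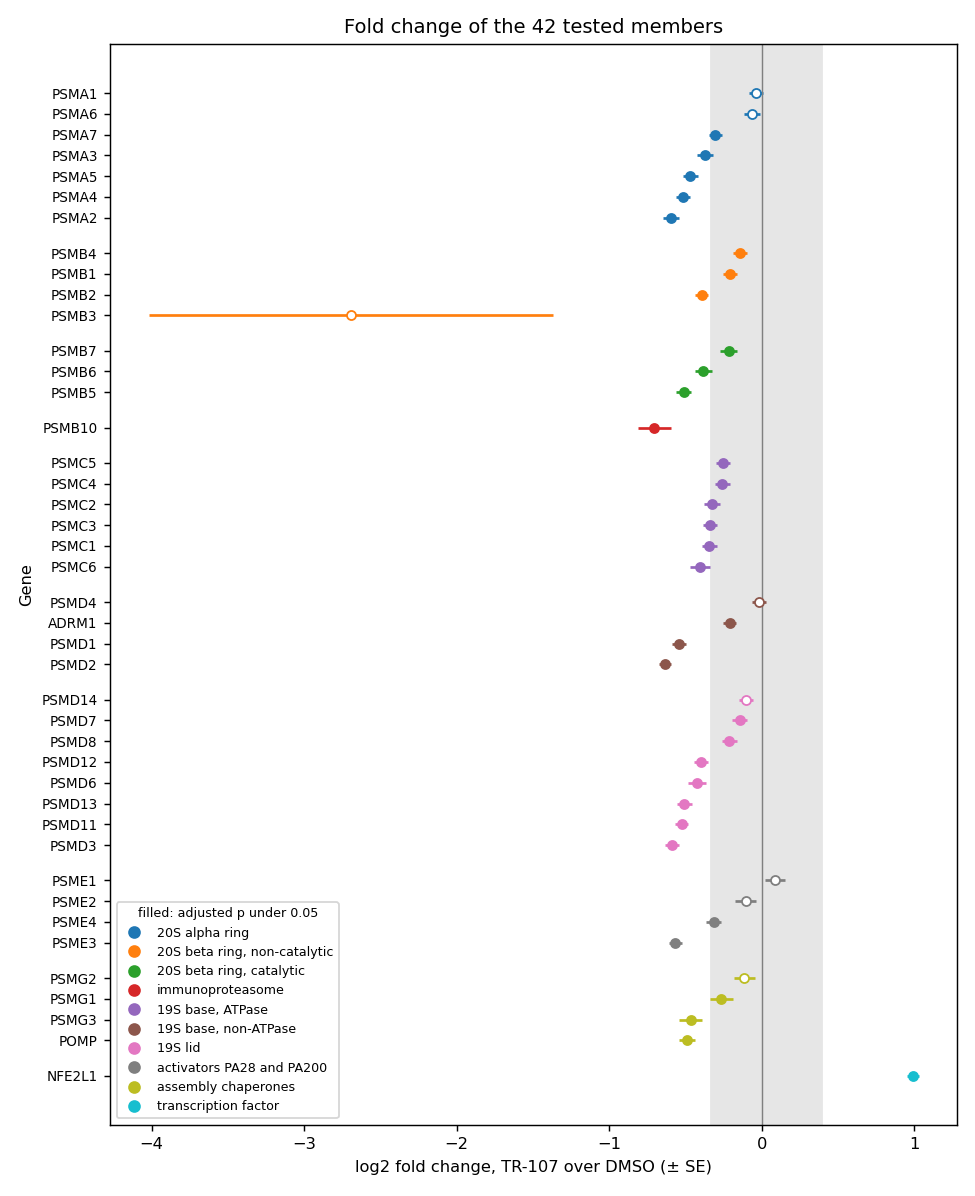
Log2 fold change (TR-107 over DMSO, with SE) of each of the 42 tested members, coloured by particle group, with filled points for an edgeR adjusted p under 0.05; the grey band spans the middle 50% of all genes tested, from -0.33 to 0.39. All tested members but PSME1 and NFE2L1 sit left of 0, NFE2L1 is called at 0.99, and PSMB3 has an SE of 1.32.

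NFE2L1 is made as a membrane protein of the endoplasmic reticulum and is released from it by processing. Its level was 292.6, 293.9 and 292.5 CPM (with TMM factors) in DMSO replicates 1, 2 and 3, and 573.8, 560.9 and 612.2 CPM in the TR-107 replicates. The groups were far apart, and the DMSO libraries had an SD of 0.786 CPM. Its log2 fold change was 0.99 ± 0.04 (SE), a 1.99-fold rise (edgeR adjusted p = 3.15e-24). NFE2L1 lies on GRCh38 chromosome 17, 48048359 to 48061545 (gene ID 4779), where its span overlaps no other annotated gene.

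Of 15 tested genes for the processing and partners of NFE2L1, 6 rose, 5 fell and 4 did not pass, against 29.2% of all genes tested called higher and 28.6% called lower. Their median log2 fold change was 0.07. SEL1L, a scaffold of the ubiquitin ligase complex that clears proteins from the endoplasmic reticulum, rose from 81.2 ± 0.965 to 182.5 ± 2.82 CPM (SD, n = 3). MAFG and MAFF, small MAF proteins that pair with NFE2L1, rose, by 1.82-fold and 2.70-fold. MAFK, another small MAF protein, did not pass (log2 fold change 0.06 ± 0.07, SE; edgeR adjusted p = 0.495). The other genes of this list that rose were SYVN1 (1.47-fold), NFE2L2 (1.38-fold) and NGLY1 (1.27-fold). VCP, the ATPase that pulls NFE2L1 out of the membrane, fell from 374.7 ± 12.4 to 274.7 ± 9.53 CPM (SD, n = 3). DDI2, the protease that cleaves NFE2L1 into its active form, fell from 18.8 ± 1.65 to 11.5 ± 1.69 CPM (SD, n = 3), and NFE2L3, a related transcription factor, was 1.75-fold lower.

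Because NFE2L1 binds antioxidant response elements, the RefSeq promoter windows (GRCh38.p14, 250 bases before to 50 after the start site) of the members were searched on both strands for TGANNNNGC, a core form of the element, and for TGACNNNGC, a narrower form contained in it. Windows were given for 38 of the 44 members. A match to TGANNNNGC was found in 23 of them (60.5%), against 42.6% of 15843 protein-coding promoters of the same length. TGACNNNGC was found in 12 members (31.6%) and in 14.3% of all such promoters. CCAAT, a common promoter box whose matches can overlap those of TGANNNNGC, was found in 19 members (50.0%) and 36.4% of all. Among tested members the median log2 fold change was -0.32 with a TGANNNNGC match (21 genes) and -0.43 without (15 genes). A match describes these letters and not a bound site.

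The windows of 4 members are given as examples, with TGANNNNGC matches on either strand in capitals. Some windows not printed hold more matches, up to 5 in PSMA5. PSMD3 and PSMD12 encode lid subunits that fell and hold the narrower pattern, PSME1 holds it and did not pass the test, and PSMD2, the called member with the steepest fall among subunits of the constitutive particles, holds none.
PSMD3 (chr17:39980557-39980856, plus strand): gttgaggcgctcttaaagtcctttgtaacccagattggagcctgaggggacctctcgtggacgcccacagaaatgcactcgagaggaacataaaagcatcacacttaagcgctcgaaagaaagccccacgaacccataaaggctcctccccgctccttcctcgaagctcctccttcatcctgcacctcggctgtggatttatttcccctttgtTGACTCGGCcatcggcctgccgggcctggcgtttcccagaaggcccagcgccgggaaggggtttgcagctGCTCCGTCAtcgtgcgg
PSMD12 (chr17:67366528-67366827, minus strand): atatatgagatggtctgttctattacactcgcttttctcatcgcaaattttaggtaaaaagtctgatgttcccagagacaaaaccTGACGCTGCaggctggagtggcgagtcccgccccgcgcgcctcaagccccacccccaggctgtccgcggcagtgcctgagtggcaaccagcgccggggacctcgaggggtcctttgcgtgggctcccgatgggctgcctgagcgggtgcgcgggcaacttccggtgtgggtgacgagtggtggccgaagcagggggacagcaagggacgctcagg
PSME1 (chr14:24135944-24136243, plus strand): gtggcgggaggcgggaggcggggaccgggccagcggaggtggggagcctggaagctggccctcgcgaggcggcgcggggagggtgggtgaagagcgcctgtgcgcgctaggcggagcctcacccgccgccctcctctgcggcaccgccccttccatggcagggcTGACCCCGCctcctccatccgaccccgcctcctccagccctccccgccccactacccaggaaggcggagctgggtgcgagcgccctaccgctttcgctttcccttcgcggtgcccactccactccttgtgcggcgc
PSMD2 (chr3:184298991-184299290, plus strand): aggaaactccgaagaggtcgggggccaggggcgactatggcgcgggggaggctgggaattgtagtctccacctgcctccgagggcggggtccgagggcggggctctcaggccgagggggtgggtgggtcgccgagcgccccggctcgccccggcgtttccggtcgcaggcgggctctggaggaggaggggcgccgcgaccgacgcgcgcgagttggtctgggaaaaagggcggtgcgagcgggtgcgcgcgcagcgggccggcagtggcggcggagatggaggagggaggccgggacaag

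Of the 14 subunits of the 20S core, 11 (78.6%) fell, against 28.6% of all genes tested called lower. The other 3 (PSMA1, PSMA6 and PSMB3) did not pass, and the median log2 fold change was -0.38. The summed level of 13 of them, PSMB3 left out, was 2327 to 2407 CPM in the DMSO libraries and 1839 to 1952 CPM in the TR-107 libraries. The mean sum after TR-107 was 80.2% of that in DMSO.

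In the alpha ring 5 of 7 subunits fell, with a median of -0.37, against 28.6% of all genes tested called lower. PSMA2 had the lowest fold change of the ring, at 149.4, 148.2 and 167.9 CPM in DMSO and 101.1, 99.8 and 106.9 CPM in TR-107. The groups did not overlap, and the log2 fold change was -0.60 ± 0.05 (SE; edgeR adjusted p = 4.19e-13). PSMA1 had the highest, at 210.9, 198.3 and 215.8 CPM in DMSO and 189.0, 207.1 and 211.8 CPM in TR-107. Its groups overlapped, and its log2 fold change of -0.04 ± 0.05 (SE) did not pass (edgeR adjusted p = 0.495). PSMA6 likewise did not pass (-0.07 ± 0.05, SE). PSMA3, PSMA4, PSMA5 and PSMA7 fell by 0.37, 0.52, 0.47 and 0.31 on the log2 scale. The particle holds the alpha subunits in equal number. Their mRNA levels per kilobase of the longest RefSeq-matched transcript differed 7.33-fold in DMSO, from 38.0 CPM per kb for PSMA5 to 278.8 for PSMA7. In TR-107 they differed 8.20-fold, with the same genes at both ends. This spread depends on the length used, which was 3729 bases for PSMA5 and 970 to 1505 for the others. Without division by length, mean DMSO levels ran from 118.1 CPM (PSMA6) to 277.7 CPM (PSMA7), with PSMA5 at 141.9 CPM.

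Of the constitutive catalytic subunits all 3 fell, against 28.6% of all genes tested called lower and 30.9% lower without overlap. PSMB5, which cuts after hydrophobic residues, was at 185.1, 180.3 and 173.1 CPM in DMSO and at 122.6, 129.7 and 125.0 CPM in TR-107. This was 1.43-fold lower, with no overlap (edgeR adjusted p = 1.75e-12). PSMB6, which cuts after acidic residues, was at 131.3, 132.7 and 127.2 CPM in DMSO and at 93.4, 97.8 and 108.4 CPM in TR-107. PSMB7, which cuts after basic residues, was at 97.1, 97.4 and 98.3 CPM in DMSO and at 82.5, 81.3 and 88.2 CPM in TR-107. Both fell without overlap, PSMB6 by 1.30-fold and PSMB7 by 1.16-fold (log2 fold changes of -0.38 ± 0.05 and -0.22 ± 0.06, SE).

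Of the 4 non-catalytic beta subunits, PSMB1, PSMB2 and PSMB4 fell, by 0.21, 0.39 and 0.14 on the log2 scale. PSMB4, the least changed, was at 207.0, 213.1 and 216.6 CPM in DMSO and at 192.1, 192.3 and 192.4 CPM in TR-107, so that even a 1.10-fold difference left the groups apart (edgeR adjusted p = 0.00444). PSMB3 had the lowest fitted fold change of all members, and that value rests on 1 library. Its counts were 144, 1146 and 70 in DMSO replicates 1, 2 and 3 and 52, 45 and 82 in TR-107. In CPM these were 7.70, 50.1 and 2.89 in DMSO and 3.04, 2.47 and 3.82 in TR-107. Every other 20S subunit was at 81.3 CPM or more in each library, and the cause of the lower PSMB3 level was not tested. The log2 fold change of PSMB3 was -2.70 ± 1.32 (SE; edgeR adjusted p = 0.159), and without DMSO replicate 2 it was -0.76 (edgeR adjusted p = 0.0499). Some neighbouring genes also varied between replicates: PCGF2, whose start lies within 0.1 Mb, had 37 counts in TR-107 replicate 1 and 419 and 485 in the others, and CWC25 had 110 in DMSO replicate 3 and 13 and 12 in the others. Others within 0.1 Mb varied less: RPL23 had 10311 to 13405 counts in DMSO and 12017 to 15196 in TR-107. CISD3 had 10 to 17 in DMSO and 11 to 14 in TR-107. No direction is read for PSMB3.

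The inducible catalytic subunits PSMB8, PSMB9 and PSMB10 replace PSMB5, PSMB6 and PSMB7 in the immunoproteasome, which interferon induces and which makes peptides for display on the cell surface. PSMB8 was listed at 0 counts in all 6 libraries, which by counting alone allows up to 3 counts among 122550653, and PSMB9 had 1 count, in DMSO replicate 1. These values cannot be read as absence of the mRNAs. Of the 33 protein-coding genes that start within 0.5 Mb of PSMB8 on chromosome 6, 17 had no count in any library, 15 had fewer than 100 counts over all 6 and 1 (BRD2, 497) had more. RPS18, a ribosomal protein gene that every cell uses, lies in this stretch and had 34 counts in all, whereas the 76 other ribosomal protein genes matched by name had a median of 76486. Of all protein-coding genes, 37.6% had fewer than 100 counts. The cause was not tested, and the setting of the authors' counting for reads that match several places is not given in the sources used here.

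**Figure D2:**
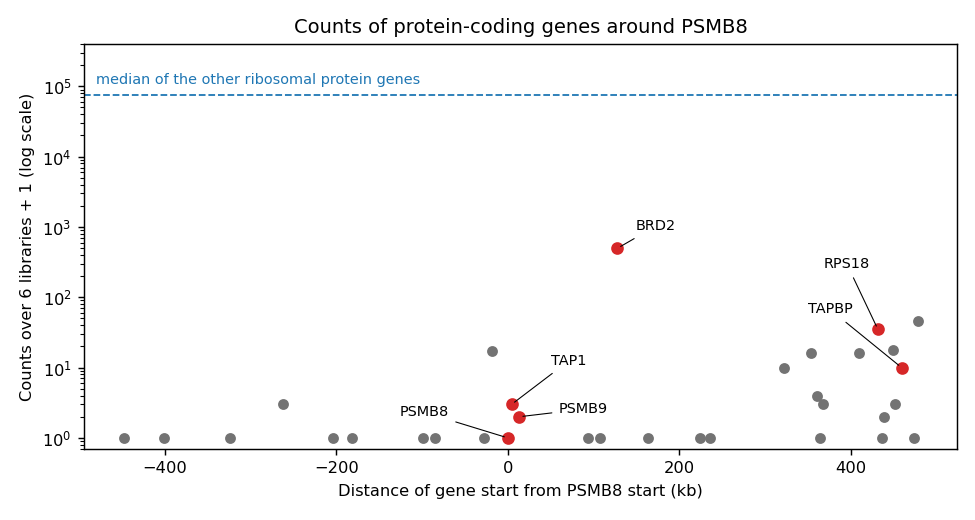
Counts summed over the 6 libraries, plus 1, on a log axis, for the 33 protein-coding genes that start within 0.5 Mb of PSMB8, by distance from the start of PSMB8; the dashed line is the median of 76486 counts of ribosomal protein genes other than RPS18. RPS18 (34 counts), PSMB9 (1) and PSMB8 (0) lie far below that line, as do all their neighbours.

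PSMB10, on chromosome 16 (67934506 to 67936850), was counted. Its level was 31.6, 32.2 and 24.9 CPM in DMSO and 17.6, 17.4 and 19.2 CPM in TR-107. The groups did not overlap, although DMSO replicate 3 lay nearer to the TR-107 libraries than the other DMSO libraries did. It fell by 0.70 ± 0.11 (SE) on the log2 scale, or 1.63-fold (edgeR adjusted p = 2.48e-07). Within each library, the log2 ratio of PSMB10 to PSMB7, the subunit it replaces, was -1.62, -1.60 and -1.98 in DMSO and -2.22, -2.22 and -2.20 in TR-107. The ratio was lower by 0.48 after TR-107, and it was below every DMSO value in each of the 3 TR-107 libraries. An exact permutation test (two-sided) gave p = 0.1, and no smaller p is possible with 3 against 3. The same ratio was not computed for PSMB8 or PSMB9, so it was computed for 1 pair only.

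Of the tested genes that interferon induces for peptide supply, 2 of 7 rose, a share near the 29.2% of all genes tested, and the other 5 did not pass, with a median log2 fold change of -0.06. ERAP1, which trims peptides in the endoplasmic reticulum, rose from 9.86 ± 0.657 to 21.3 ± 2.38 CPM (SD, n = 3), and B2M, the light chain of class I molecules, was 1.13-fold higher. TAP1, TAP2 and TAPBP lie in the same stretch of chromosome 6 as PSMB8, with 2, 16 and 9 counts in all, and were not tested.

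The mRNAs of the 19S particle fell about as broadly as those of the core. Of 18 subunits, 16 fell, against 28.6% of all genes tested called lower. PSMD4 and PSMD14 did not pass, and the median log2 fold change was -0.34. Summed over the 18, the level was 3658 to 3692 CPM in the DMSO libraries and 2765 to 2919 CPM in the TR-107 libraries, a mean of 77.0% of that in DMSO. Whether the mRNAs of the 19S and 20S particles differed in this was not tested.

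All 6 ATPases of the base fell, within the narrow range of -0.40 to -0.26 on the log2 scale. Over all genes tested, 28.6% were called lower. PSMC6 had the lowest fold change, at 81.6, 78.1 and 83.4 CPM in DMSO and 56.1, 62.5 and 64.8 CPM in TR-107. PSMC5 had the highest, at 203.2, 201.0 and 193.4 CPM in DMSO and 167.3, 166.6 and 166.7 CPM in TR-107. In both genes, and in the other 4 ATPases, the groups did not overlap, while 30.9% of all genes tested were lower without overlap. The log2 fold changes were -0.40 ± 0.06 (SE) for PSMC6 and -0.26 ± 0.04 (SE) for PSMC5, whose span shares 233 bases with FTSJ3.

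Of the 4 other subunits of the base, 3 fell. PSMD2, a scaffold that binds ubiquitin-like domains, was at 536.3, 557.1 and 547.4 CPM in DMSO and at 353.5, 344.5 and 360.8 CPM in TR-107. It fell by 0.63 ± 0.04 (SE) on the log2 scale, or 1.55-fold, with no overlap (edgeR adjusted p = 4.35e-18). PSMD1, the other large scaffold, fell 1.46-fold. Of the ubiquitin receptors, ADRM1 fell 1.16-fold, while PSMD4 was at 177.1, 183.1 and 175.6 CPM in DMSO and at 171.5, 171.3 and 185.8 CPM in TR-107. The groups of PSMD4 overlapped, and its log2 fold change of -0.02 ± 0.05 (SE) did not pass (edgeR adjusted p = 0.753).

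In the lid 7 of 8 subunits fell, with a median of -0.41, and in all 8 the TR-107 libraries lay below the DMSO libraries. Of all genes tested, 28.6% were called lower and 30.9% were lower without overlap. PSMD3, a structural subunit, had the lowest fold change, at 264.8, 273.7 and 270.5 CPM in DMSO and 174.1, 173.0 and 190.7 CPM in TR-107 (-0.59 ± 0.04, SE; edgeR adjusted p = 5.04e-15). PSMD14, the deubiquitinase that removes ubiquitin chains as substrates enter, had the highest, at 168.4, 153.3 and 163.0 CPM in DMSO and 152.9, 150.3 and 147.7 CPM in TR-107. Its groups were separate by less than 1 CPM, and its log2 fold change of -0.10 ± 0.05 (SE) did not pass (edgeR adjusted p = 0.0577), although it passed under 4 of the 14 alternatives tried. PSMD11, PSMD13, PSMD6, PSMD12, PSMD8 and PSMD7 fell by 0.52, 0.51, 0.43, 0.40, 0.21 and 0.14 on the log2 scale, and PSMD7 lost its call without TR-107 replicate 1.

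**Figure D3:**
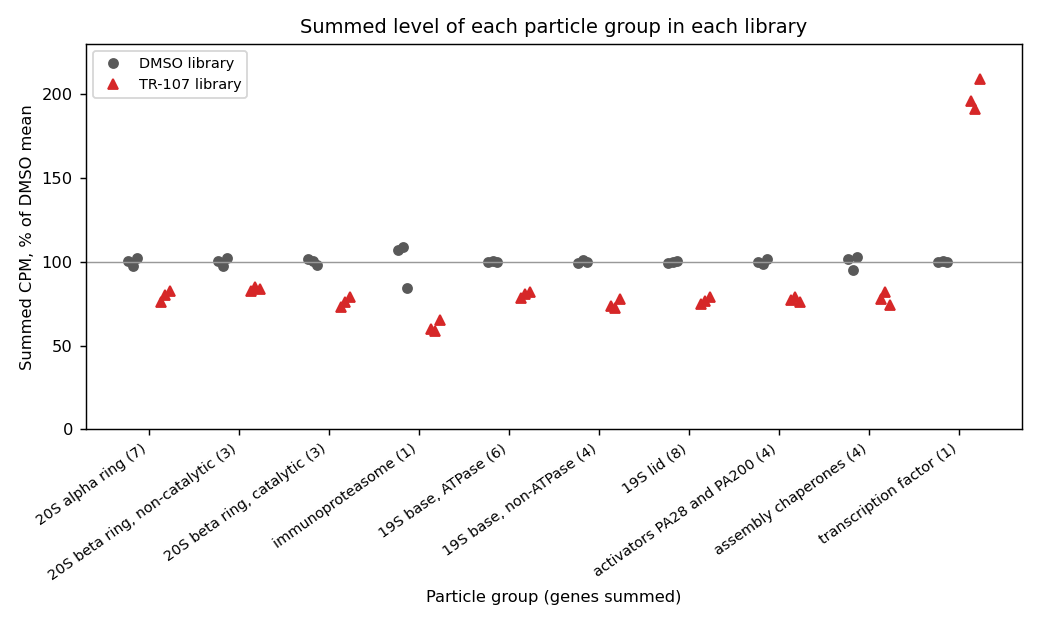
Summed CPM of the members of each particle group in each library, as a percentage of the mean of the DMSO libraries, with circles for DMSO and triangles for TR-107 and the number of genes summed in parentheses (PSMB3, PSMB8 and PSMB9 are left out). For 9 of the 10 groups all TR-107 libraries lie below all DMSO libraries, and for the transcription factor NFE2L1 they lie above, at a mean of 198.7%.

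The mRNAs of the activator caps, proteins that open the core without using ATP, split. PSME3, the nuclear PA28 gamma cap, was at 326.6, 310.6 and 323.4 CPM in DMSO and at 220.8, 221.6 and 206.1 CPM in TR-107. It fell 1.48-fold with no overlap (log2 fold change -0.57 ± 0.04, SE; edgeR adjusted p = 3.47e-15). PSME4, the PA200 cap, was at 143.5, 146.9 and 145.6 CPM in DMSO and at 109.6, 121.1 and 119.3 CPM in TR-107, a 1.25-fold fall (edgeR adjusted p = 5.87e-07). PSME1 and PSME2 form the cytosolic PA28 alpha-beta cap, which interferon induces. PSME1 was at 60.4, 65.6 and 68.6 CPM in DMSO and at 71.3, 67.9 and 68.0 CPM in TR-107. Its groups overlapped, and it did not pass (0.09 ± 0.06, SE; edgeR adjusted p = 0.241). PSME2 was at 55.1, 54.0 and 56.9 CPM in DMSO and at 51.0, 53.3 and 50.2 CPM in TR-107. Its groups were narrowly separate, and it did not pass (-0.10 ± 0.07, SE; edgeR adjusted p = 0.196). The difference between the PA28 gamma and PA28 alpha-beta genes was not itself tested.

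Among the chaperones that build the 20S core, 3 of 4 fell, with a median of -0.36, against 28.6% of all genes tested called lower. POMP, which brings beta subunits onto the alpha ring and is consumed by each finished core, was at 129.5, 118.4 and 134.9 CPM in DMSO and at 90.7, 93.7 and 88.1 CPM in TR-107. It fell 1.41-fold without overlap (edgeR adjusted p = 2.39e-10). PSMG3, which helps to assemble the alpha ring, fell 1.38-fold, and PSMG1 fell 1.20-fold. PSMG2, the partner of PSMG1 in a heterodimer, was at 57.2, 52.8 and 56.9 CPM in DMSO and at 48.4, 53.0 and 52.7 CPM in TR-107. Its groups overlapped, and it did not pass (-0.11 ± 0.07, SE; edgeR adjusted p = 0.164). The span of PSMG2 overlaps those of CEP76 and SPIRE1, and whether their exons overlap was not examined. Reads in any shared exon could not be told apart if strand was not used in counting.

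**Figure D4:**
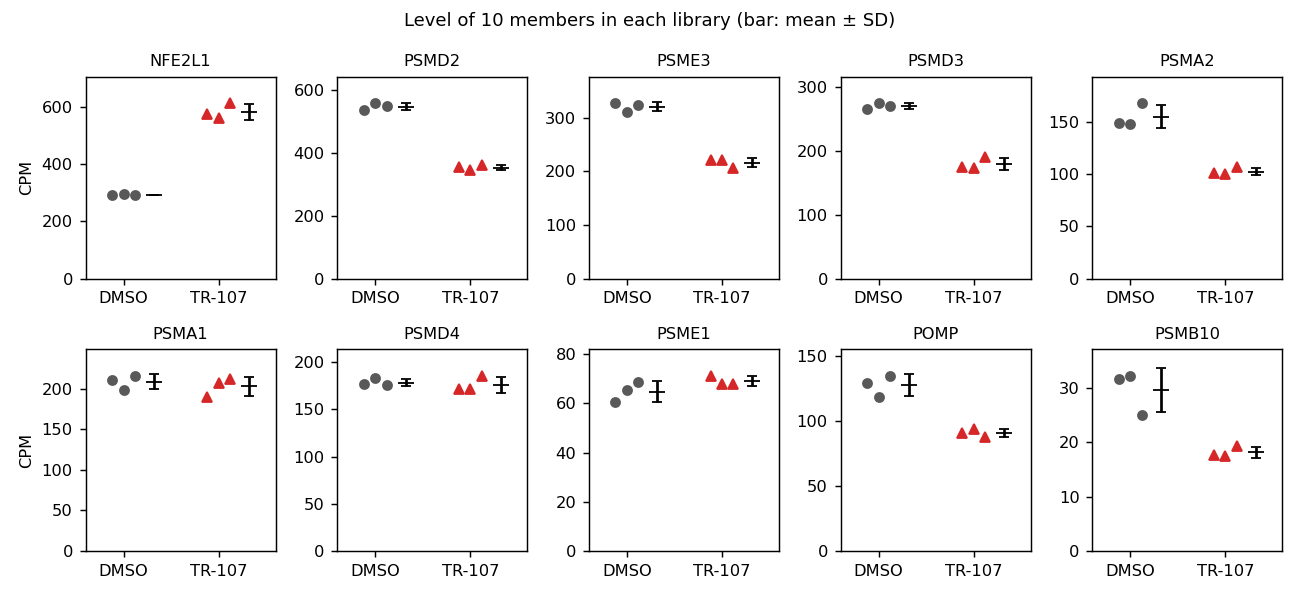
Level in CPM of 10 members in each DMSO library (circles) and TR-107 library (triangles), with the mean and SD of each group as a bar, each panel on its own axis from 0. NFE2L1 rises from a mean of 293.0 to 582.3 CPM, PSMA1, PSMD4 and PSME1 overlap between groups, and the other 6 lie lower in all TR-107 libraries.

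Of 15 tested subunits, chaperones and associated factors outside the 44, 7 fell, 4 rose and 4 did not pass, with a median log2 fold change of -0.11. Over all genes tested, 28.6% were called lower and 29.2% higher. The difference between these genes and the members was not tested. PSMD5, a chaperone of the 19S base, fell 1.31-fold, UBE3C, a ubiquitin ligase bound to the proteasome, fell 1.21-fold and IPO9, a nuclear import factor, fell 1.21-fold. ECPAS, an adaptor that binds the 19S particle, rose from 159.5 ± 3.08 to 228.7 ± 8.38 CPM (SD, n = 3). AKIRIN2, which carries proteasomes into the nucleus, rose 1.56-fold, and ZFAND5, which stimulates the 26S proteasome, rose 1.22-fold. The other gene of this list that rose was PAAF1 (1.69-fold), the largest rise of the list.

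Of 13 tested genes for ubiquitin, its activating enzymes and the receptors that deliver its conjugates, 7 rose, 4 fell and 2 did not pass, with a median log2 fold change of 0.10. The 4 that fell are 30.8% of the list, near the 28.6% of all genes tested, and 29.2% of all genes were called higher. SQSTM1, a receptor that hands ubiquitinated cargo to autophagy, rose from 299.1 ± 9.60 to 723.9 ± 4.51 CPM (SD, n = 3), and NBR1, a receptor of the same kind, rose from 79.6 ± 4.31 to 203.2 ± 13.0 CPM (SD, n = 3). UBQLN1 and UBQLN4, shuttles to the proteasome, fell 1.19-fold and 1.17-fold, and UBA1, the main ubiquitin-activating enzyme, fell 1.16-fold.

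The members' counts carry some limits that these values do not remove. The spans of 16 members overlap another annotated gene, and for 8 of them (PSMA3, PSMB7, PSMC1, PSMC2, PSMC5, PSMD1, PSMD6 and PSMG2) that gene had counts of its own. RefSeq names 50 pseudogenes after 21 of the members, and none of the 50 had a row in the count files, so how reads shared with these copies were counted is not known. In these bulk libraries, fewer cells with a transcript and less of it per cell cannot be told apart. Only mRNA was counted, and amounts of protein, assembled particles and proteasome activity were not measured in these libraries.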

How the data were processed

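Polyadenylated RNA of 6 HCT116 libraries was sequenced as paired reads, per the labels' protocols. The deposited values are raw read counts per gene ID, made by the authors with FastQC, Trimmomatic, HISAT2 and featureCounts on hg38, per the submitters' processing notes; the sources used here do not give versions, annotation, or strand and multi-mapping settings. Of 28395 IDs, 27745 matched a symbol in RefSeq GRCh38.p14 and 650 did not. Sample titles gave the group and replicate number.

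Counts were tested as deposited with edgeR 4.0.16 in R 4.3.3: filterByExpr, TMM factors, a robust quasi-likelihood fit on the group alone, and Benjamini-Hochberg adjustment over 13767 genes. SEs were derived from the F statistic. The test was checked on simulated data. A gene of the ubiquitin list that is withheld is counted in the list but not reported here by its own values. The PSMB10 to PSMB7 ratio took 0.5 counts added to each gene and an exact permutation over libraries. Transcript lengths came from GENCODE 29. Each library was treated as 1 replicate. Libraries of a group differed by more than sampling noise (chi-square of 3.92 to 6.05 per degree of freedom), which does not show that they came from separate cultures.

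The members and lists were chosen with earlier results of these data known, so no list was tested as a set. Values in each library are given for NFE2L1, the inducible subunits and their partners, the activators, POMP, and the highest and lowest member of each other group; of other lists, up to 3 genes per direction with the smallest p. PCGF2, CWC25, RPL23, CISD3, RPS18, BRD2, MAFK, SYVN1, NFE2L2, NGLY1 and PAAF1 were added after their values were seen. So were the members named without values in each library. Alternatives were other scaling factors and filters, a replicate block, DESeq2 1.42.0, limma-voom (limma 3.58.1) and leaving out each library.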

Additional observations from a re-analysis of the deposited data

How the results depend on the processing

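Of the 34 members called, all 34 kept their call under 13 of the 14 alternatives run, and 33 did without TR-107 replicate 1, where PSMD7 lost it. Leaving out each library in turn gave 32 to 35 members called lower and 1 called higher, and a median log2 fold change of -0.37 to -0.32. With library size alone the members' median was -0.40 and that of all genes was -0.05. There 38 members were called lower, with PSMA1, PSMA6, PSMD14, PSME2 and PSMG2 added. PSMD14 was also called with relative log expression factors, with a minimum of 1 CPM in 3 libraries and without DMSO replicate 2. PSMB3 was called by DESeq2 (log2 fold change -2.71, adjusted p = 0.0258) and without DMSO replicate 2. The sign of 2 uncalled members changed when libraries were left out: PSMA1 ranged from -0.0839 without DMSO replicate 2 to 0.0092 without TR-107 replicate 1, and PSMD4 from -0.0578 without TR-107 replicate 3 to 0.0018 without TR-107 replicate 1. The cause was not tested. With the replicate number as a block, 33 members were called lower and 1 higher, as without it. Deviations of same-numbered libraries correlated at -0.03, -0.02 and 0.05, and not every library correlated best with its own number. With so few libraries, these values cannot settle whether same-numbered cultures shared a batch. Permuted within pairs of a number, the PSMB10 to PSMB7 ratio still differed by -0.48, with an exact p of 0.25, the smallest that 3 pairs allow. Leaving out each library gave -0.61 to -0.41, and adding 0 or 5 counts gave -0.48 and -0.47. The share of members with TGANNNNGC was 52.6% in the 250 bases before the start alone, against 35.6% of all protein-coding promoters. Adding pseudogene reads to the members was not run, since none of those genes had a row in the count files.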
